A study of Arabidopsis thaliana with 26 samples.

Results

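Developing leaves of Arabidopsis thaliana sampled at 48 h were compared with developing leaves sampled at 2 h, using all 8 arrays that the labels place in these groups (4 at each time) out of the 26 in the series. The features compared were the 22746 probe sets of the Affymetrix ATH1 array that are not AFFX controls, of which 13648 were bright enough on average over the 26 arrays to be tested. Both groups were wild-type plants of accession Col-0 under the first treatment of a study of systemic signalling of light and CO2, with CO2 and light both ambient. The plants stood on compost in a growth room at 20 °C and 50% humidity with a 10 h light period, and RNA came from the still expanding leaves at insertions 19 to 21. The other arrays hold developing leaves at 4, 12, 24 and 96 h (4 arrays each) and mature leaves at 24 h (2 arrays). A p-value for a probe set here rests only on the spread within groups, pooled over the 7 groups of all 26 arrays. This spread may be technical. The labels number the replicates without saying whether they came from separate plants. They also give no clock time for the hours, so that 48 h and 2 h differ both in leaf age and, by an amount that is not a whole number of days, in the time of day.

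A young leaf grows at first mainly by cell division, which ends from the tip towards the base, and then by expansion of the cells already made. Division needs new histones, replication proteins and the spindle, while expansion needs enzymes that loosen the wall. Many leaf transcripts also follow the circadian clock and the light period, among them those of carbon, sulfur and cell wall metabolism. An array of a whole leaf cannot tell fewer cells of a type from less RNA per cell.

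The tissue carried the transcripts of a green leaf. PSBY, a subunit of photosystem II, lay between 10.92 and 11.41 on the 8 arrays, where levels here and below are log2 of the MAS5 intensity plus 4.35. The median intensity of an array in the series lay between 40.7 and 47, and each of the 8 arrays at 2 h and 48 h correlated with the others of its group at a mean r of 0.976 to 0.983. Of 35 marker genes of meristem, root, flower, pollen, seed, vasculature and trichome, 1 was measured, the trichome patterning gene TRY. A listed gene counts as measured only if a tested probe set names it and no other gene. Since 5944 of the 13648 tested probe sets name no gene, the unmeasured markers say nothing about which tissues were present. TRY stood at 6.01, 5.97, 5.64 and 5.38 at 2 h and at 6.59, 6.01, 6.11 and 6.32 at 48 h, a difference of 0.51 ± 0.19 (SE) that did not pass (adjusted p = 0.0542, limma). RNA integrity was read from control probe sets that lie near the 3 prime and 5 prime ends of a transcript. For actin, the 3 prime level exceeded the 5 prime level by 2.66 log2 units at 2 h (SD 0.154, n = 4) and by 2.0 at 48 h (SD 0.505, n = 4). An exact permutation test of this difference gave p = 0.0571, or 0.171 after adjustment for the 3 controls, where 0.0286 is the smallest p that 4 against 4 allows. The GAPDH difference was 0.314 at 2 h (SD 0.133) and 0.246 at 48 h (SD 0.239), and the ubiquitin difference 1.64 (SD 0.238) and 1.54 (SD 0.104), with exact permutation p = 0.629 and 0.429. The part of RNA integrity in the results below was not tested beyond a fit with the actin ratio as a covariate, which called 2775 probe sets, 2505 of them among those of the fit without it.

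Of the 13648 probe sets tested, 1531 (11.2%) were higher at 48 h and 1731 (12.7%) were lower, 3262 in all (23.9%), with an adjusted p under 0.05 in limma. Most of the differences were small. At least 1.5-fold differences numbered 625 higher and 597 lower, and at least 2-fold differences 144 and 107. The 4 values of each group did not overlap for 1709 probe sets with higher values at 48 h (12.5%) and for 2054 with lower ones (15%). Of the 7445 probe sets that name a single gene, 727 were higher and 905 lower. The median difference over all probe sets was -0.01.

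**Figure D1:**
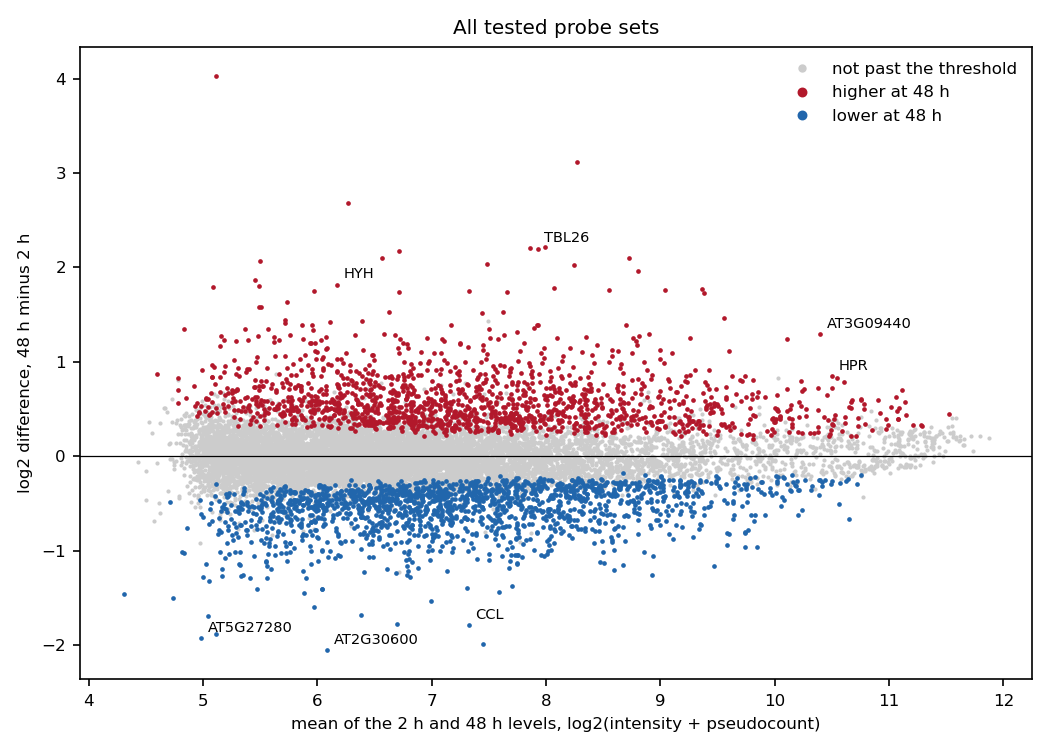
Each point is 1 of the 13648 probe sets tested, with its mean log2 level on the horizontal axis and its log2 difference, 48 h minus 2 h, on the vertical axis; coloured points passed the test. The 1531 higher and 1731 lower probe sets lie at all levels, and most of them lie within 1 log2 unit of 0.

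The largest named rises came from unrelated families: a family of wall acetyltransferases, a heat shock co-chaperone, a light-signalling factor, a transporter and enzymes of sucrose and methionine metabolism. These rises were chosen among probe sets that passed without overlap between groups, so that the lack of overlap follows from the choice. TBL26, of the TRICHOME BIREFRINGENCE-LIKE family of enzymes that acetylate wall polysaccharides, measured 6.95, 6.99, 6.94 and 6.44 at 2 h and 9.08, 9.0, 8.98 and 9.06 at 48 h. The 48 h arrays lay within 0.1 of each other, and the lowest of them lay 1.99 above the highest 2 h array, a 4.60-fold rise (adjusted p = 1.95e-08). AT5G48570, which RefSeq lists as FKBP65 or ROF2, a peptidyl-prolyl isomerase that acts with heat shock proteins, measured 5.88, 5.91, 5.22 and 5.51 at 2 h and 7.79, 7.48, 8.06 and 7.87 at 48 h. Its groups lay far apart, and the rise was 4.50-fold (2.17 ± 0.23 SE, adjusted p = 1.65e-07). HYH, a bZIP factor of light signalling closely related to HY5, measured 5.48, 5.29, 5.13 and 5.15 at 2 h and 7.14, 7.21, 6.90 and 7.08 at 48 h, so that all arrays of a time lay close together (1.82 ± 0.16, adjusted p = 1.03e-08).

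The transporter gene AT2G26690, or NPF6.2, of the nitrate and peptide transporter family, measured 6.68, 6.56, 6.29 and 6.31 at 2 h and 8.34, 8.23, 7.96 and 8.27 at 48 h. It rose 3.35-fold with no overlap between groups (1.75 ± 0.15, adjusted p = 6.53e-09). ATSPS4F, a sucrose phosphate synthase, which makes the precursor of sucrose, measured 5.15, 4.49, 4.61 and 4.55 at 2 h and 6.45, 6.35, 6.39 and 5.92 at 48 h. Replicate 1 was the highest of its group at 2 h and still lay below all 48 h arrays (1.58 ± 0.21, adjusted p = 4.56e-06). The serine carboxypeptidase-like gene scpl46 measured 5.88, 5.71, 6.24 and 5.54 at 2 h and 7.20, 7.85, 7.52 and 7.76 at 48 h, without overlap (1.74 ± 0.23, adjusted p = 2.80e-06). MSRB5, which reduces oxidised methionine in proteins, was more scattered at 2 h, at 6.0, 5.45, 4.48 and 4.76, and stood at 7.05, 6.45, 6.47 and 6.27 at 48 h. Its groups came within 0.27 of each other, and the rise of 1.39 carried a SE of 0.33 (adjusted p = 0.00249).

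Further large rises were those of GSTU16, a tau-class glutathione S-transferase (1.34 ± 0.15), and of genes for which the files give only a locus. Among the latter, AT3G16530 measured 5.82, 4.02, 6.18 and 4.37 at 2 h and 7.14, 7.11, 6.44 and 6.68 at 48 h, so that its 2 h arrays spanned over 2 log2 units (1.75 ± 0.40, adjusted p = 0.00175). AT1G66100 was also scattered at 2 h (9.43, 8.61, 8.14 and 7.74) and uniform at 48 h (10.27, 10.20, 10.27 and 10.24). AT3G09440, placed with the chaperones by its locus, rose by 1.29 ± 0.11, from between 9.62 and 9.87 to between 10.80 and 11.15, and AT1G78020 by 1.28 ± 0.15. The 25th largest rise among named genes was 1.27.

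**Figure D2:**
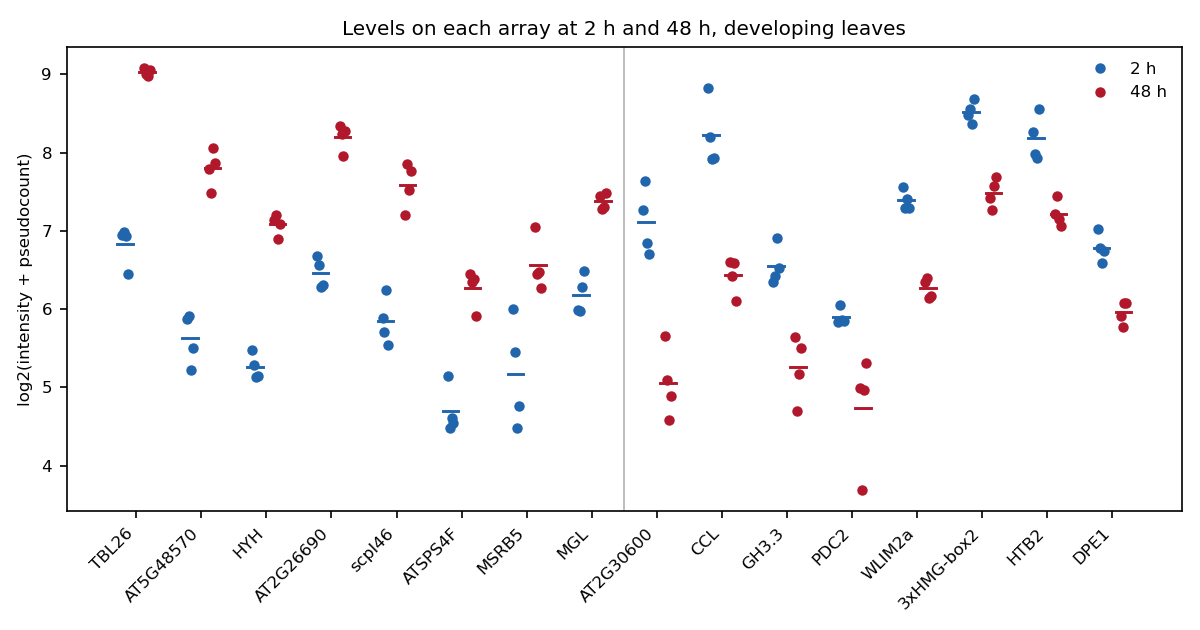
Points give the log2 level of 16 genes on the 4 arrays at 2 h (blue) and the 4 at 48 h (red), and short bars give the means. The 8 rises, such as TBL26 from below 7 to about 9, and the 8 falls, such as AT2G30600 from 6.70 or more to 5.66 or less, show no overlap between the times. The largest named rises and falls were chosen among probe sets without overlap, so that for these genes its absence follows from the choice.

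The largest named falls included a clock-controlled transcript, an enzyme of fermentation, an auxin-conjugating enzyme and a chloroplast RNA editing factor. An actin-bundling protein, just short of the 25 largest falls, is set beside them. The largest falls were likewise chosen among probe sets without overlap, so that its absence in them follows from the choice. AT2G30600 measured 7.27, 7.64, 6.85 and 6.70 at 2 h and 5.66, 5.09, 4.59 and 4.89 at 48 h, the largest fall among named genes (-2.06 ± 0.20, adjusted p = 2.20e-08). Another probe set of the same gene fell less (-1.11 ± 0.28). CCL, whose transcript is short-lived and under clock control, measured 8.83, 8.19, 7.92 and 7.94 at 2 h and 6.61, 6.42, 6.59 and 6.11 at 48 h, which left a gap of 1.31 between the groups (-1.79 ± 0.16). PDC2, a pyruvate decarboxylase of the fermentation pathway, measured 5.83, 6.05, 5.86 and 5.85 at 2 h and 4.99, 3.69, 4.97 and 5.31 at 48 h. Its 2 h arrays were tight, and 48 h replicate 2 lay more than 1 log2 unit below the others of its time (-1.16 ± 0.28, adjusted p = 0.00342).

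GH3.3, which joins auxin to amino acids, measured 6.34, 6.42, 6.90 and 6.53 at 2 h and 5.64, 4.70, 5.17 and 5.51 at 48 h, with no overlap (-1.29 ± 0.27, adjusted p = 7.60e-04). WLIM2a, a LIM protein that bundles actin filaments, measured 7.56, 7.29, 7.41 and 7.29 at 2 h and 6.35, 6.40, 6.14 and 6.17 at 48 h, with a gap of 0.89 between the groups (-1.12 ± 0.10, adjusted p = 1.50e-08). OTP81, a pentatricopeptide repeat (PPR) protein of RNA editing in the chloroplast, measured 5.05, 5.89, 5.84 and 5.77 at 2 h and 2.85, 4.92, 4.95 and 4.72 at 48 h. The lowest value, at 48 h replicate 1, lies near the bottom of the scale, where the size of a difference follows from the pseudocount. The fall of OTP81 was -1.28 ± 0.37 (adjusted p = 0.0121) and -0.77 without that array, where it did not pass (adjusted p = 0.0742). AT5G27280 fell by 1.93 on the log2 scale, from between 5.76 and 6.23 to between 2.90 and 4.80, and its 48 h values also reach that low range. AT2G47890 fell by 1.19 and did not pass with the actin ratio as a covariate (adjusted p = 0.0802). Among the 25 largest falls, the others named in the text passed in that fit, and the rest were not looked at there.

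Genes of cell division that passed the test were lower at 48 h. Of 18 genes of mitosis and cytokinesis, 8 fell, none rose and the other 10 did not pass (4 passed with a filter at the 60th percentile, which tests fewer genes). Their median was -0.31, against -0.02 over the 7368 genes that a probe set names, of which 724 rose and 899 fell. 3xHMG-box2, a protein that binds mitotic chromosomes, measured 8.48, 8.55, 8.36 and 8.68 at 2 h and 7.42, 7.27, 7.58 and 7.69 at 48 h. All its 48 h arrays lay below all 2 h arrays (-1.03 ± 0.15, adjusted p = 1.18e-05). The genes of the spindle checkpoint, which holds chromosome separation until every chromosome is attached, moved alike, with BUB3.1 at -0.78 ± 0.12, BUB3.2 at -0.73 ± 0.14 and BUBR1 at -0.70 ± 0.14. BUBR1 stood at 5.74, 5.70, 5.64 and 5.79 at 2 h and at 4.88, 5.03, 4.96 and 5.20 at 48 h, tight within each time.

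Of 35 listed histone genes 8 were measured, 6 for H2B and 2 for linker histones, and none of those listed for H2A, H3 or H4. All 8 measured genes fell, by 0.62 to 1.45 on the log2 scale, with a median of -0.84. HTB2, for the core histone H2B, measured 8.26, 7.98, 7.93 and 8.56 at 2 h and 7.22, 7.45, 7.15 and 7.06 at 48 h, without overlap (-0.96 ± 0.20, adjusted p = 6.58e-04). HTB11, also for H2B, measured 8.80, 9.01, 8.59 and 8.91 at 2 h and 8.10, 7.99, 8.04 and 8.03 at 48 h (-0.79 ± 0.10). The members placed in the list by locus alone were AT2G28720 (-1.45 ± 0.23), AT2G37470 (-0.93 ± 0.14), AT1G06760 (-0.90 ± 0.09) and AT2G30620 (-0.62 ± 0.08). Histone genes are near copies of each other, so that a probe set may read more than its named gene.

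Among 20 genes of DNA replication, repair and chromatin assembly 8 fell, none rose and 12 did not pass (median -0.31). CHR17, a remodeller that spaces nucleosomes, fell by 0.73 (SE 0.12), ASF1B, a chaperone that hands histones to new DNA, by 0.71 (SE 0.14), and PRL, the MCM7 subunit of the replicative helicase, by 0.56 (SE 0.11). PRL measured 8.14, 8.32, 8.51 and 8.57 at 2 h and 7.74, 7.82, 7.88 and 7.83 at 48 h, where all arrays lay below the lowest at 2 h. RECQ4A, a helicase of DNA repair, stood at -1.0 ± 0.29 (adjusted p = 0.0125), but 48 h replicate 2 read 4.23 against 5.77 to 6.08 on the other 48 h arrays, and without it the difference was -0.57 and did not pass (adjusted p = 0.0807). The number of genes that fell in this group was 4 without 48 h replicate 2 and 5 without 48 h replicate 3.

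The machinery of transcription and RNA processing was also lower at 48 h where it passed. Among 9 RNA polymerase subunits 5 fell (median -0.54), and 8 passed in a fit of the 8 arrays alone. NRPC2, the subunit next in size to the largest of RNA polymerase III, which makes transfer RNA, measured 6.73, 6.95, 6.84 and 6.92 at 2 h and 6.16, 5.80, 6.19 and 6.21 at 48 h, all below the 2 h values (-0.77 ± 0.12). NRPB6A (-0.59 ± 0.10) and NRPB12 (-0.57 ± 0.11), small subunits that the nuclear polymerases share, fell by similar amounts. Of 26 genes of splicing and RNA export 7 fell, 4 without 2 h replicate 4 or in the fit with the actin covariate, and the median was -0.23. Y14, a component of the complex that marks exon junctions, measured 8.61, 8.87, 8.90 and 8.84 at 2 h and 8.03, 8.11, 8.20 and 8.15 at 48 h, a gap of 0.41 between the groups (-0.68 ± 0.09, adjusted p = 2.56e-06). The splicing factor gene ATO was at -0.54 ± 0.12.

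Of 9 genes of ribosome assembly and RNA decay 3 fell (median -0.30), among them RRP41L, related to a subunit of the RNA exosome (-0.56 ± 0.10). Of 11 genes of organelle PPR and RNA editing proteins 3 fell (median -0.13). PPR596, of mitochondria, measured 7.70, 8.28, 8.37 and 8.34 at 2 h and 7.39, 7.25, 7.34 and 7.19 at 48 h. Its replicate 1 at 2 h lay lowest of its time and still above all 48 h arrays (-0.88 ± 0.14).

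Cytoskeleton and cell wall genes moved in both directions. Of 7 tubulin genes, TUB5 (-0.92 ± 0.15) and TUB7 (-0.49 ± 0.10) fell. TUA1 rose by 0.33 ± 0.11 and did not pass without 2 h replicate 2 or 3 or 48 h replicate 2 or 4 (adjusted p = 0.123, 0.0590, 0.0736 and 0.0573). TUB5 measured 8.72, 8.35, 8.50 and 8.54 at 2 h and 8.01, 7.50, 7.64 and 7.27 at 48 h, without overlap. Besides WLIM2a, its relative WLIM1 fell (-0.50 ± 0.10) in a group of 8 LIM and NET proteins that bind actin, of which 3 fell and none rose. Of 7 expansins, which loosen the wall without cutting it, 3 rose and none fell (median 0.48). EXPB1 measured 6.29, 6.11, 6.50 and 6.52 at 2 h and 6.98, 7.76, 7.69 and 7.43 at 48 h, with replicate 1 lowest at 48 h and above all 2 h arrays (1.11 ± 0.17, adjusted p = 1.93e-05). EXLB1 rose by 0.80 ± 0.15, while EXPA4, EXPA15 and EXPA9 lay between -0.13 and 0.02 and did not pass.

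Of 18 enzymes of xyloglucan and other glucans 7 rose and 1 fell. XTH32, which cuts and rejoins xyloglucan, measured 8.94, 8.67, 8.90 and 8.72 at 2 h and 9.57, 9.58, 9.45 and 9.62 at 48 h (0.75 ± 0.09, adjusted p = 6.55e-07), with 0.51 between the groups. The endoglucanase genes GH9B8 (0.86 ± 0.17) and GH9C2 (0.50 ± 0.09) rose, and CSLD2, a synthase of the cellulose synthase-like D family, fell (-0.43 ± 0.12). Of 3 pectin methylesterases, which act on pectin in the wall, PMEPCRF (0.94 ± 0.13) and ATPMEPCRB (0.88 ± 0.17) rose and PME61 fell (-0.44 ± 0.16, adjusted p = 0.0494). PME61 did not pass without 2 h replicate 1, 2 or 3 or 48 h replicate 1, 3 or 4 (adjusted p = 0.0605 to 0.187). Of 15 TRICHOME BIREFRINGENCE-LIKE genes, 4 rose and 2 fell (median 0.06). Apart from TBL26, these calls were weak. The number past the threshold was 2 without 48 h replicate 1, 2 h replicate 3 or 2 h replicate 4 and 3 without 48 h replicate 2 or 3.

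Genes of photosynthesis and photorespiration that passed were higher at 48 h. All 3 measured nuclear subunits of the chloroplast NDH complex, which carries electrons around photosystem I, rose. NdhL measured 8.14, 7.87, 7.73 and 7.46 at 2 h and 8.57, 8.59, 8.41 and 8.29 at 48 h, where the gap between the groups was 0.15 (0.67 ± 0.13, adjusted p = 4.29e-04). NdhS (0.64 ± 0.15) and NdhN (0.59 ± 0.12) rose by similar amounts. Of 7 genes of the Calvin cycle and photorespiration 5 rose and none fell (median 0.50). HPR, the peroxisomal hydroxypyruvate reductase of photorespiration, measured 10.26, 9.95, 9.98 and 10.11 at 2 h and 10.77, 11.08, 10.94 and 10.91 at 48 h, with all 48 h arrays above all 2 h arrays (0.85 ± 0.13, adjusted p = 2.83e-05). The Calvin cycle enzyme genes PRK (0.61 ± 0.14) and SBPASE (0.50 ± 0.11) rose, and RCA, Rubisco activase, was at 0.21 and did not pass (adjusted p = 0.345).

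Of 10 nuclear genes of photosystems, antenna and ATP synthase 3 rose and none fell, and 6 passed in a fit of the 8 arrays alone. LHCB4.3, an antenna protein of photosystem II, measured 8.42, 8.74, 8.08 and 8.51 at 2 h and 9.17, 9.28, 8.86 and 8.93 at 48 h (0.62 ± 0.14), while its relatives LHCB4.1 and LHCB4.2 were both at 0.25 and did not pass. PSB27, an assembly factor of photosystem II, rose by 0.34 ± 0.09. All 68 measured genes of the plastid genome had a positive difference, of 0.08 to 0.87 with a median of 0.30. Of these 5 passed, where 724 of all 7368 named genes rose, so the share was no higher than over all genes. Their mean level shifts from array to array, from 8.98 to 9.80 on the 24 h arrays, so 68 like signs are not 68 separate results. The number past the threshold was 0 without 2 h replicate 2, 1 without 48 h replicate 2 or 3, and 2 without 2 h replicate 3 or 48 h replicate 4, while 26 passed in a fit of the 8 arrays alone. The mean level of these genes ran from 9.33 to 9.66 on the 2 h arrays and from 9.65 to 9.82 on the 48 h arrays, with replicate 1 at nearly the same level at both times. In chlorophyll and haem synthesis 1 of 10 genes passed, 3 without 48 h replicate 1 and 2 without 2 h replicate 4. PORB, a protochlorophyllide reductase, fell (-0.62 ± 0.14), with 10.29, 9.98, 9.87 and 10.27 at 2 h and 9.08, 9.65, 9.58 and 9.60 at 48 h.

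Among starch and sugar genes, 1 starch enzyme fell and some sugar transporters rose. DPE1, the plastid enzyme that recycles short glucans during starch breakdown, measured 7.03, 6.78, 6.59 and 6.75 at 2 h and 5.91, 5.78, 6.07 and 6.08 at 48 h, a gap of 0.51 (-0.83 ± 0.11, adjusted p = 1.92e-06). The other 4 measured starch enzymes did not pass. Of 7 SWEET sugar exporters 3 rose and none fell. SWEET1 measured 8.30, 8.24, 8.38 and 8.09 at 2 h and 8.91, 9.15, 8.96 and 8.99 at 48 h, with narrow groups that did not overlap. Among 5 other sugar transporters SFP1 (0.58 ± 0.16) and SFP2 (0.40 ± 0.12) rose, and SFP2 did not pass without 2 h replicate 4 or with the actin covariate (adjusted p = 0.0542 and 0.0521).

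Of 7 transporters of the NPF family 4 rose and none fell. Next to NPF6.2 stood AT3G21670, or NPF6.4, which measured 8.39, 8.68, 8.49 and 8.38 at 2 h and 9.47, 9.47, 9.56 and 9.54 at 48 h, so that the 48 h arrays were nearly equal (1.03 ± 0.15, adjusted p = 8.49e-06). AT1G68570, or NPF3.1, rose by 0.74 ± 0.13, and GTR1, which carries glucosinolates, by 0.38 ± 0.09, whereas its close relative GTR2 was at -0.01 and did not pass.

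In sulfur, methionine and glucosinolate metabolism 6 of 11 genes rose and 1 fell (median 0.38). MGL, methionine gamma-lyase, which breaks methionine down, measured 5.99, 5.98, 6.29 and 6.49 at 2 h and 7.44, 7.28, 7.30 and 7.49 at 48 h, without overlap (1.19 ± 0.17, adjusted p = 1.14e-05). ARD4, named for acireductone dioxygenase of the methionine salvage cycle, rose by 0.71 ± 0.18, SAMDC, of polyamine synthesis, by 0.48 ± 0.10 and SIR, the sulfite reductase of sulfate assimilation, by 0.43 ± 0.10. HMT-1, which makes methionine from homocysteine, fell, from 7.36, 7.43, 7.56 and 7.27 at 2 h to 6.75, 6.91, 6.73 and 6.65 at 48 h (-0.65 ± 0.10, adjusted p = 2.28e-05).

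Redox and conjugation enzymes mostly rose where they passed. Of 6 glutathione S-transferases 4 rose and 1 fell. GSTU16 measured 5.10, 5.02, 5.33 and 5.70 at 2 h and 6.84, 6.61, 6.53 and 6.52 at 48 h, while GSTU26 fell, from between 5.88 and 6.19 to between 4.88 and 5.38 (-0.88 ± 0.15). Members of this family thus lay on opposite sides. Of 15 glutathione, glutaredoxin, thioredoxin and peroxidase genes 6 rose and 1 fell, 4 in all without 48 h replicate 2. The glutathione reductase genes GR1 (0.65 ± 0.13) and GR (0.51 ± 0.10) and the glutaredoxin gene GRXC1 (0.71 ± 0.15) rose. Of 5 methionine sulfoxide reductases 3 rose and 1 fell, and besides MSRB5 the gene MSRB6 rose by 0.78 ± 0.18, with 2 past the threshold without 2 h replicate 2 or 48 h replicate 3. Of 20 UDP-glycosyltransferases, which attach sugars to small molecules, 8 rose and none fell (median 0.29), led by GT72B1 (0.92 ± 0.16) and IAGLU, which acts on auxin (0.84 ± 0.14).

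Phenylpropanoids and flavonoids are phenolic compounds that serve as pigments, sunscreens and lignin precursors. Of 4 of their enzyme genes grouped by symbol, CHIL and HCT rose, while DFR (-0.11) and 4CL8 (-0.05) did not pass. CHIL, a helper of chalcone formation, measured 7.75, 7.67, 8.0 and 7.61 at 2 h and 8.79, 8.94, 8.65 and 9.08 at 48 h, without overlap (1.11 ± 0.17). HCT, an enzyme of lignin precursors, measured 8.61, 8.54, 8.57 and 8.44 at 2 h and 9.32, 9.55, 9.57 and 9.68 at 48 h (0.99 ± 0.08, adjusted p = 3.41e-09). Of 4 measured flavonoid genes listed by locus, the glycosyltransferase genes UGT78D1 and UGT78D2 rose, while DFR and UF3GT (-0.14) did not pass. UGT78D1 measured 8.11, 8.19, 7.80 and 7.88 at 2 h and 8.81, 8.69, 8.66 and 8.86 at 48 h, without overlap (0.76 ± 0.12), and UGT78D2 rose by 0.61 ± 0.16. BGLU40 rose (1.1 ± 0.10) in a family of 7 beta-glucosidases of which 3 fell, among them BGLU44, at -0.77 ± 0.12. Of 8 aldehyde dehydrogenases 3 rose and 1 fell. ALDH2C4, which oxidises the aldehyde precursors of sinapate and ferulate, rose by 0.59 ± 0.08, ALDH11A3, a glyceraldehyde phosphate dehydrogenase of the cytosol, by 0.48 ± 0.08 and ALDH10A8 by 0.32 ± 0.08. Of 7 cytochromes P450 of the CYP71B family 2 rose, CYP71B6 by 0.39 ± 0.09 and CYP71B24 by 0.56 ± 0.16, and CYP71B26 fell. CYP71B24 did not pass without 2 h replicate 4 or 48 h replicate 2 (adjusted p = 0.0676 and 0.0503).

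Chaperones and co-chaperones split evenly, with 5 of 14 higher and 5 lower. Beside AT5G48570 and AT3G09440, Hsp70-2 rose, from 7.30, 7.16, 7.21 and 7.22 at 2 h to 8.18, 8.08, 8.18 and 8.13 at 48 h (0.92 ± 0.09, adjusted p = 5.00e-08), with both groups within a narrow range. SGT1A, a partner of HSP90 in immune receptor assembly, rose by 1.18 ± 0.14. The genes that fell included Hop1, which links chaperone machines (-0.53 ± 0.10), and the nucleotide exchange factors Fes1B (-0.74 ± 0.16) and Fes1C (-0.51 ± 0.12). HSP70 genes are close in sequence, and their probe sets may read each other. Of 13 genes of folding in the endoplasmic reticulum 1 rose and 2 fell, and 1 in all passed without 2 h replicate 2, without 48 h replicate 4 or with the actin covariate.

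In signalling, the 13 measured MYC, bHLH and bZIP factors held 3 rises and no fall. MYC4, a factor of jasmonate signalling, rose by 0.64 ± 0.17, from between 5.40 and 5.82 to between 5.95 and 6.45, while MYC3 was at 0.10 and did not pass. Among 6 auxin genes, GH3.3 fell while IAGLU and IAA18, a repressor of auxin response (0.48 ± 0.08), rose. RALFL32, a secreted signalling peptide, rose by 0.85 ± 0.13, and the other 5 RALF genes measured did not pass. The number of RALF genes past the threshold was 2 without 48 h replicate 3 or with the replicate block and 0 with a filter at the 60th percentile. Of 28 listed clock genes 3 were measured, and CCL alone passed. GI, an evening clock gene, measured 6.01, 5.93, 5.82 and 5.80 at 2 h and 5.66, 5.78, 5.76 and 5.39 at 48 h, which all lay lower, but by an amount that did not pass (-0.24 ± 0.16, adjusted p = 0.323). AT5G52660 was at 0.20 ± 0.14 and did not pass (adjusted p = 0.325). None of the 3 measured genes of leaf polarity, the 3 of the stomatal lineage, the 9 of the ATG8 family of autophagy or the 6 U-box ubiquitin ligases passed in limma, and none of these 21 had an unadjusted p under 0.05. 1 of the ATG8 genes passed without 48 h replicate 1, with array weights or with the actin covariate. SPCH, which starts the stomatal lineage, measured 6.84, 6.77, 6.82 and 6.59 at 2 h and 6.11, 6.18, 6.44 and 6.93 at 48 h, where replicate 4 stood highest (-0.34 ± 0.21, adjusted p = 0.267).

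**Figure D3:**
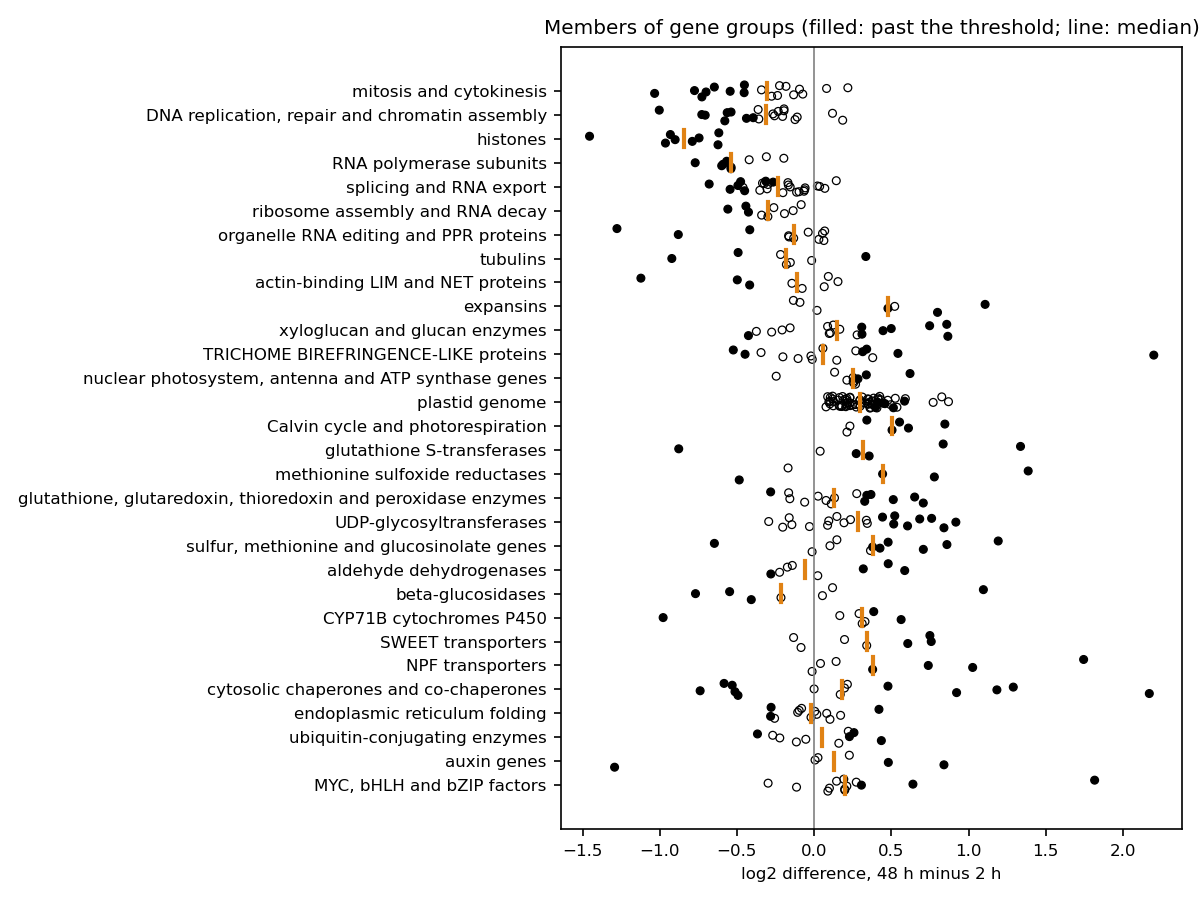
Each row is a group of genes with at least 5 measured members and at least 3 past the threshold, and each point is the log2 difference of 1 gene, 48 h minus 2 h, with filled points past the threshold and the bar at the median. All 8 measured histone genes (H2B and linker) lie left of 0 and past the threshold. The mitosis genes that passed lie left of 0, and the chaperones lie on both sides.

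Values at 24 h were set beside those at 48 h. The comparisons of 24 h with 2 h and of 48 h with 24 h share arrays with that of 48 h with 2 h, by which the probe sets were chosen, so that medians of the same sign follow in part from the choice and nothing is read from them. The 1531 probe sets higher at 48 h had a median of 0.53 between 48 h and 2 h, of 0.40 between 24 h and 2 h and of 0.14 between 48 h and 24 h. For the 1731 lower ones the medians were -0.49, -0.39 and -0.12. Between 48 h and 24 h, 24 probe sets were higher (0.176%) and 19 lower (0.139%), 43 in all (0.315%), with 1908 at an unadjusted p under 0.05. This count was 0 without 24 h replicate 1 or 48 h replicate 3 and 104 without 24 h replicate 2, so that single arrays decided it. It was 18 without 48 h replicate 1, 12 without 24 h replicate 3 and 4 without 48 h replicate 4. Of the 25 largest rises TBL26 alone passed between 48 h and 24 h, at 0.93, and none of the 25 largest falls did. HMT-1 was at -0.20 between 24 h and 2 h and at -0.44 between 48 h and 24 h. PDC2 was lower still at 24 h, at -2.10 against 2 h. CYP71B26, a cytochrome P450, was at -1.36 at 24 h and at -0.98 ± 0.13 at 48 h, both against 2 h.

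**Figure D4:**
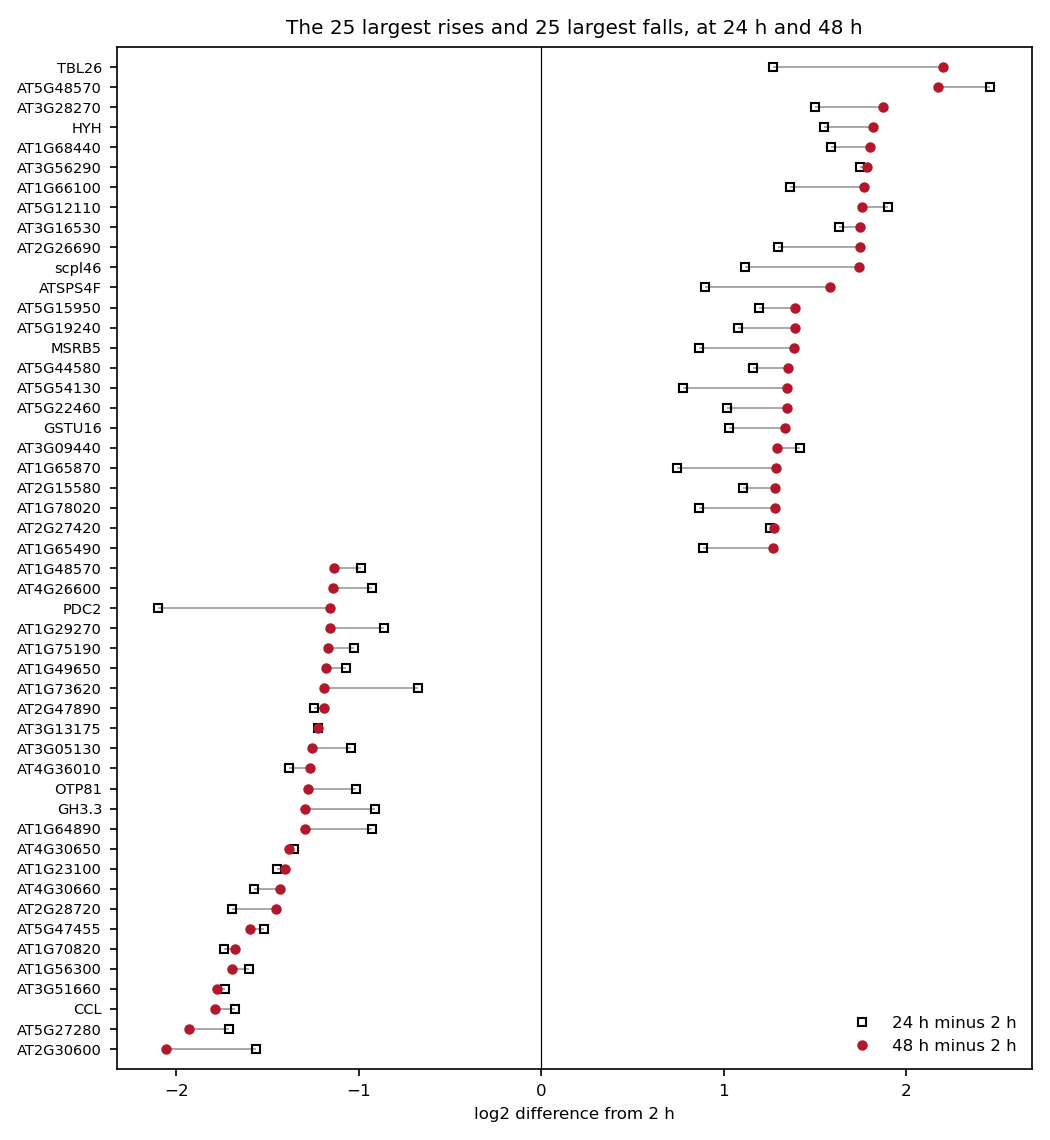
For the 25 largest named rises and the 25 largest named falls, an open square gives the log2 difference of 24 h from 2 h and a filled circle that of 48 h, joined by a line. TBL26 runs from 1.27 at 24 h to 2.2 at 48 h and PDC2 from -2.10 to -1.16, while AT5G48570 stood at 2.46 and 2.17; both points share the 2 h arrays.

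Comparisons that share no array with that of 48 h and 2 h were used to place the same probe sets within the day, over later days and by leaf age. Between 12 h and 4 h, 21.7% of all probe sets were higher and 17.5% lower. Of the set higher at 48 h, 42.7% were higher and 14.7% lower between 12 h and 4 h, and of the set lower at 48 h, 57.3% were lower and 6.76% higher. Between 96 h and 24 h, which lie 3 whole days apart, 8.4% of all probe sets were higher and 8.84% lower. Of the set higher at 48 h, 38.9% were higher there and 0.33% lower, and of the set lower at 48 h, 38.2% were lower and 0.98% higher. Seen from the other side, 52.0% of the probe sets higher at 96 h than at 24 h and 54.8% of those lower were also in the 48 h set of the same direction. The same shares were 22.1% and 41.5% of the lists between 12 h and 4 h and 27.1% and 25.3% of the lists in mature leaves. Over all probe sets tested, 11.2% and 12.7% were in the 48 h sets, and the lists differ in length.

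Mature leaves at 24 h, with 2 arrays, differed from developing leaves at 24 h in most probe sets, with 24.1% higher and 37.6% lower. Of the set higher at 48 h, 58.3% were higher in mature leaves and 17.2% lower, and of the set lower at 48 h, 75.0% were lower and 8.43% higher. These mature and later comparisons share the 24 h arrays with each other. Of the 18 mitosis genes, 16 were lower in mature leaves, and 10 fell from 24 h to 96 h. Of the 8 histones 5 were lower and 1 higher in mature leaves, and all 3 nuclear NDH genes were higher there. From 24 h to 96 h 6 histones fell and 2 NDH genes rose. The same groups also moved within a day. Between 12 h and 4 h, 7 mitosis genes were lower and 2 higher (median -0.19). In that comparison 6 histones were lower and none higher (median -0.94), and all 3 NDH genes were higher (median 0.72).

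The named genes fell into several time courses. TBL26 was higher at 96 h than at 24 h (0.82) and in mature leaves (2.00), and NPF6.2 likewise (0.99 and 1.49). ATSPS4F was higher in each of the other comparisons, between 12 h and 4 h (1.21), between 96 h and 24 h (1.15) and in mature leaves (3.22). Among falls, 3xHMG-box2 was lower between 12 h and 4 h (-0.66), between 96 h and 24 h (-0.51) and in mature leaves (-3.27), and BUB3.1 was lower in the same comparisons (-1.02, -0.55 and -1.1). These genes moved between 2 h and 48 h in the direction of mature leaves.

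Others moved the opposite way from the difference of mature from developing leaves at 24 h. The genes of both kinds were chosen by their values, and the part of leaf age was not tested. CCL was higher in mature leaves by 3.51, AT5G27280 by 3.55, PDC2 by 3.17 and AT1G70820 by 3.06, although each fell between 2 h and 48 h. CHIL was lower in mature leaves by a difference of -2.33, UGT78D1 of -2.25, AT5G12110 of -2.12, MGL of -1.56, SWEET1 of -1.14 and AT5G48570 of -1.06, although each rose between 2 h and 48 h. NPF6.4 and AT5G12110 were low at 12 h against 4 h, with -2.85 and -2.18, and GI with -3.72. Of the 25 largest rises, 11 were higher and 6 lower between 12 h and 4 h, 15 higher and none lower between 96 h and 24 h, and 20 higher and 4 lower in mature leaves. Of the 25 largest falls, 15 were lower and 2 higher between 12 h and 4 h, 10 lower and 2 higher between 96 h and 24 h, and 10 lower and 10 higher in mature leaves. Over all probe sets, 21.7% were higher and 17.5% lower between 12 h and 4 h. The shares were 8.4% and 8.84% between 96 h and 24 h and 24.1% and 37.6% in mature leaves. The 10 falls lower in mature leaves and the 2 higher between 96 h and 24 h lie near those shares.

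**Figure D5:**
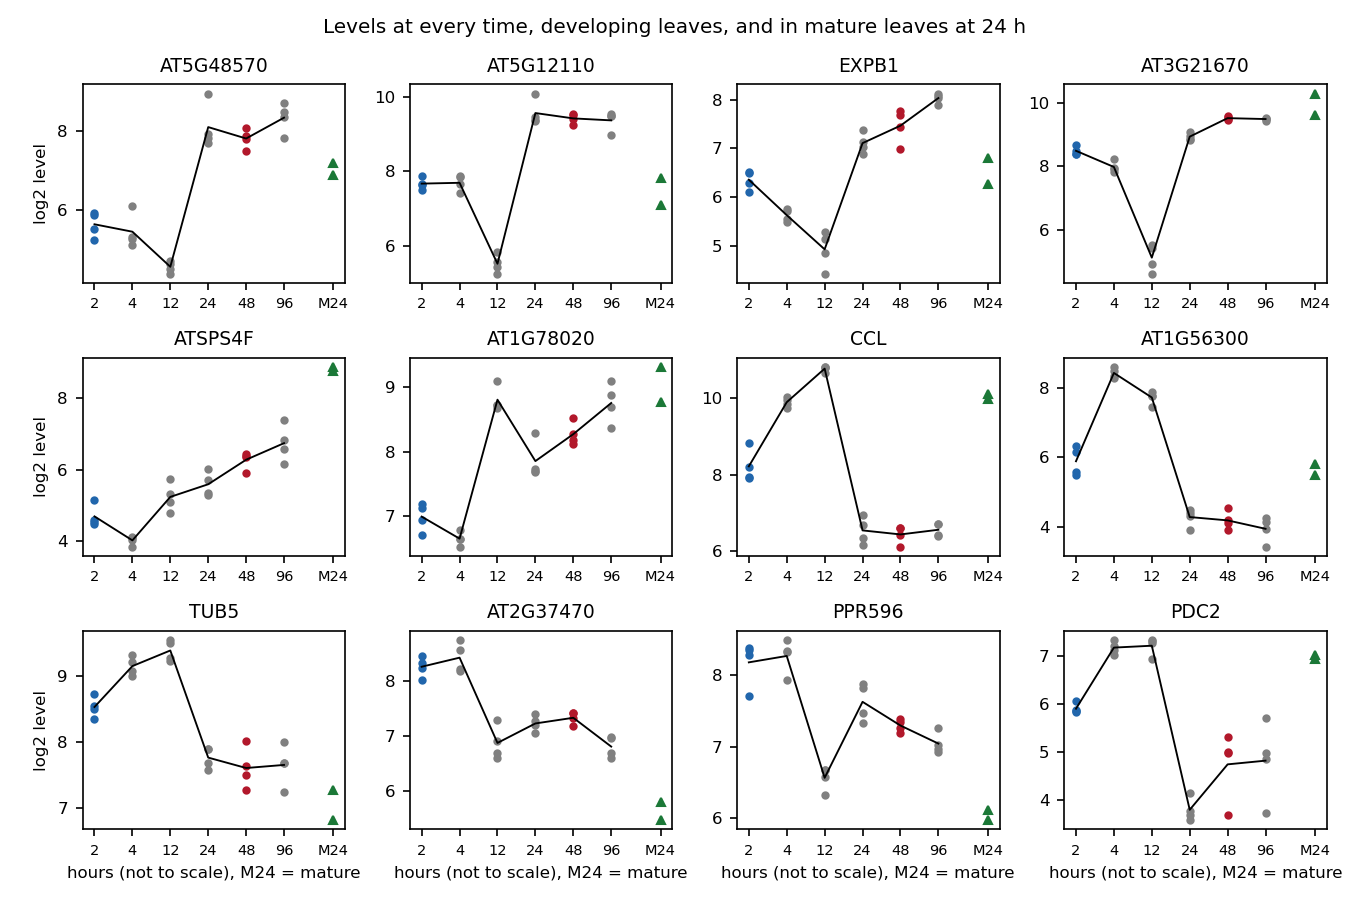
Points give the log2 level of 12 genes on each of the 4 arrays at 2, 4, 12, 24, 48 and 96 h in developing leaves, lines join the means (hours are not to scale), and triangles are the 2 arrays of mature leaves at 24 h. AT3G21670 (NPF6.4) dips at 12 h, ATSPS4F climbs from 4 h on and has its highest level in mature leaves, and CCL is at its highest at 12 h and lower from 24 h on than at 2 h.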

How the data were processed

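The deposited table holds 1 MAS5 intensity per probe set and array, which the authors computed per the submitters' processing notes. A 2% trimmed mean of 100.01 on every array shows that the values were scaled to a common level. The 64 AFFX control probe sets were left out, and the intensities of the other 22746 were taken as log2 of the deposited value plus 4.35, a pseudocount set at 10% of the overall median. Folds therefore understate the change of dim probe sets. Probe sets under the 40th percentile of the mean log2 level over the 26 arrays were dropped, which left 13648. All 26 arrays in 7 groups entered 1 linear model (limma 3.58.1 in R 4.3.3, variance prior with an intensity trend). Adjusted p-values are two-sided, by Benjamini and Hochberg over all probe sets tested, with a threshold of 0.05, and a value after ± is a SE unless marked as a SD. The script was tested on simulated data.

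The number of arrays limits the precision. No detection calls were used.

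Probe sets were named by the symbols of the platform annotation, which can be old. Loci came from RefSeq by gene number, where 7423 of 7445 single-gene probe sets matched. Of the probe sets tested, 259 listed several genes and 5944 none, and these were not named. The genes named are the 25 largest rises and the 25 largest falls among single-gene probe sets that passed without overlap between groups, up to 4 passing members in each direction of every list or group with at least 3 measured members, the 2 largest differences of lists in which none passed, and all measured clock genes. The 34 lists by locus, the 47 groups by symbol and the members of the comparison were chosen with earlier results of these data known, so counts over them are descriptions. Relatives set beside a member for contrast were chosen after their values were seen. Alternatives were other pseudocounts, filters, quantile normalization, a replicate block, array weights, no intensity trend, the actin ratio as a covariate, a fit of the compared groups alone and leaving out each array.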

Additional observations from a re-analysis of the deposited data

Results flagged for a closer look

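Single arrays stood far from the other 3 of their group for 13 of the genes named, by a test on the gap to the nearest array over the range of the group. Of 226 groups of 4 values examined 15 were past Dixon's critical value, and chance gives about 1 in 20. Among genes that rose, TBL26 read 6.44 on 2 h replicate 4 against 6.94 to 6.99 on the others. BGLU40 read 8.39 on 48 h replicate 4 (others 8.54 to 8.55), GRXC1 6.76 on 48 h replicate 2 (6.84 to 6.85) and GTR1 7.73 on 48 h replicate 3 (7.86 to 7.89). AT5G52660, which did not pass, read 5.61 on 48 h replicate 4 (5.95 to 5.98).

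Among genes that fell, TUB7 read 9.05 on 2 h replicate 4 (8.83 to 8.86) and PDC2 6.05 on 2 h replicate 2 (5.83 to 5.86). PORB read 9.08 on 48 h replicate 1 (9.58 to 9.65), and PPR596 read 7.70 on 2 h replicate 1 (8.28 to 8.37). Replicate 1 was low for OTP81 at both times, at 5.05 at 2 h (5.77 to 5.89) and 2.85 at 48 h (4.72 to 4.95). On 48 h replicate 2, Hop1 read 6.60 (6.97 to 7.02), NRPC2 5.80 (6.16 to 6.21) and RECQ4A 4.23 (5.77 to 6.08). The median intensity of 48 h replicate 1 was 46.42, against 42.04 to 42.05 on the other 48 h arrays.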

How the results depend on the processing

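The 3262 probe sets past the threshold between 48 h and 2 h numbered 2761 to 4407 under the alternative settings and 2585 to 3163 without 1 array, and 46.2% to 48.2% of the calls were higher. Replicate numbers recur in each group, but same-numbered arrays of 2 h and 48 h correlated at 0.144, 0.044, -0.064 and 0.197 in their deviations from the group means, not every array correlated best with its own number, and the numbers were not taken to pair the samples. The replicate block gave 3493 calls, 3223 of them among the 3262, and let TRY pass (adjusted p = 0.0384). Of the genes named above from the gene rule, those that changed their call were TRY, PSBY, AT2G47890, OTP81, RECQ4A, CYP71B24, SFP2, PME61 and TUA1, and none changed direction. TRY passed in 5 settings (adjusted p = 0.0209 to 0.0471) and PSBY in 4 (0.00653 to 0.0481). The 43 calls between 48 h and 24 h became 28 with no filter, 171 with array weights, 21 with no intensity trend, 95 with the actin covariate and 1 with only the arrays compared, and 0 to 104 without 1 array. The calls between 96 h and 24 h became 1378 with only the arrays compared and 1571 to 2315 without 1 array. The calls between 12 h and 4 h numbered 4619 to 4938 and those in mature leaves 7296 to 8505 without 1 array. The GAPDH ratio at 48 h minus that at 2 h was between -0.167 and 0.027 without 1 array, and was positive without 48 h replicate 4. With the 60th percentile as filter, where fewer genes are tested, 4 mitosis genes, 3 replication genes and 1 gene of the MYC, bHLH and bZIP factors passed. Dim probe sets limit the size of the folds.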

Other observations

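Probe sets without a single named gene held 804 of the rises and 826 of the falls, and 5 of them rose by more than the largest named rise. The probe set 247780_at measured 2.80, 3.74, 2.48 and 3.37 at 2 h and 7.30, 7.0, 6.94 and 7.28 at 48 h, from near the level that the pseudocount sets to well above it (4.03 ± 0.23, adjusted p = 2.42e-12 in limma). The brighter 261569_at measured 7.14, 5.92, 7.12 and 6.68 at 2 h and 9.61, 9.96, 9.75 and 10.01 at 48 h (3.12 ± 0.24). Among falls, 263548_at measured 9.05, 8.11, 8.19 and 8.42 at 2 h and 6.94, 6.32, 6.35 and 6.2 at 48 h, without overlap (-1.99 ± 0.20). These 3 probe sets were chosen after their values were seen, and the platform annotation used here gives none of them a single gene.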
